A study of Homo sapiens with 3 samples.

Results

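The chaperonin TRiC, also called CCT, was followed through its 8 subunit genes, TCP1, CCT2, CCT3, CCT4, CCT5, CCT6A, CCT7 and CCT8, in 3 lists of ribosome-occupied stretches of the genome. The genes were taken as a named list. A stretch, here called a ribosome peak, was assigned through the RefSeq identifier of its annotation where that identifier maps to a gene, and otherwise through its listed gene name. By this rule the 8 genes held 30 of 11219 peaks in the vector list, 62 of 19920 in the wild-type DDX3X list and 15 of 15680 in the G325E list. Only 5 of the 8 genes had any peak.

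The data came from ribosome profiling, which sequences pieces of mRNA shielded by bound ribosomes during nuclease digestion. HEK293T cells, a line derived from human embryonic kidney that carries the SV40 large T antigen, were transiently transfected for 24 h with empty pCDNA3.1 (vector), with FLAG-tagged wild-type DDX3X or with FLAG-tagged DDX3X G325E, a missense form found in medulloblastoma of this DEAD-box RNA helicase. All 3 cultures kept their own DDX3X gene. Per the labels, harringtonine, which stalls ribosomes as they start, was given at 2 µg/ml for 90 s and then cycloheximide, which freezes elongating ribosomes, at 100 µg/ml. The methods of the study name cycloheximide only, and the lists do not settle which holds. There was 1 library per construct, so no difference between constructs could be set against a spread between cultures and no test was made. Every interval given here covers counting error only, at 95%, and takes peaks as independent. An occupied stretch can be split into several peaks, so the intervals can be too narrow. In exon 12 of CCT4, for example, a wild-type DDX3X peak of 95 bp lay over vector peaks of 57 and 23 bp.

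TRiC is a double-ring ATP-driven folding machine. Each ring is built from the 8 different but related subunits, 1 copy of each, and every subunit has an ATP-binding equatorial domain and its own substrate-binding apical domain. Actins and tubulins need it to fold, as do many proteins with WD40 repeats. Because the complex has a fixed composition, its subunits are needed in equal numbers, and equal ribosome occupancy per length is the reference against which the 8 genes can be laid side by side. Their coding sequences were nearly the same length, from 1593 nt in CCT6A to 1668 nt in TCP1, so that peak numbers were close to peak numbers per length.

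The peaks on which the comparison turned are shown by their coding sequence, read 5′ to 3′ on the strand of the gene from the hg19 genome. The first pair covers the start codons of CCT4 and CCT6A, in capitals, and was present in all 3 lists. These were the only peaks of the complex that held a start codon.
CCT4 exon 1, chr2:62115517-62115642, minus strand: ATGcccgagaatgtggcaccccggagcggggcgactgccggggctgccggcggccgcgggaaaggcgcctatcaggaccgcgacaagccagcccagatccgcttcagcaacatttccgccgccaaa
CCT6A exon 1, chr7:56119542-56119678, plus strand: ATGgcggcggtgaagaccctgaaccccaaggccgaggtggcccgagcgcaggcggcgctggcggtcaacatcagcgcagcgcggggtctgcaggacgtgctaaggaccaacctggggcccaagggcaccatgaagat

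The next 3 were the longest of the other 5 coding peaks listed with G325E, all of them at places also covered with vector and with wild-type DDX3X.
CCT3 exon 14, chr1:156278997-156279059, minus strand: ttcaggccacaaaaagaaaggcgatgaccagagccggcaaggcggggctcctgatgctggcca
CCT4 exon 12, chr2:62099232-62099285, minus strand: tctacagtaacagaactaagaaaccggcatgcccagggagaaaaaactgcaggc
CCT4 exon 11, chr2:62099696-62099720, minus strand: acaggctgtgccagccctggaaaaa

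The last pair was covered with wild-type DDX3X alone, and stands for the 38 places where the complex had a peak in that list only.
CCT5 exon 10, chr5:10263319-10263390, plus strand: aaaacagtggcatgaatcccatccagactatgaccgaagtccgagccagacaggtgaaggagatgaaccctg
CCT2 exon 9, chr12:69986781-69986847, plus strand: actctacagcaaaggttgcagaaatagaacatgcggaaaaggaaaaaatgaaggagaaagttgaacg
The GC content of these 7 sequences was 69.0%, 67.9%, 60.3%, 48.1%, 56.0%, 51.4% and 38.8% in the order shown. The start-codon pair was the richest in G and C, and the CCT2 stretch the poorest.

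The lists held peaks in 2126, 3197 and 2443 genes for vector, wild-type DDX3X and G325E. Peaks carry no height or read number, and the number of peaks does not measure the depth of a library. By the read totals in the supplement of the study, which were not used here, the wild-type DDX3X library had the most mapped reads after removal of duplicates and the G325E library the fewest. That is also the order of the summed TRiC peaks, and the part of depth in it was not tested. Running numbers in the lists were skipped for 14.8% of peaks with vector and 13.5% with wild-type DDX3X, and for none with G325E, and the skipped peaks were not analysed here. DDX3X itself had 0, 32 and 9 peaks in the 3 lists, so the transfected constructs stood above vector, while plasmid and endogenous transcripts cannot be told apart. One label calls the cells neuronal. Of 10 neuronal markers 3 had peaks in every list, TUBB3 (8, 6 and 5), NEFL (7, 10 and 13) and NEFM (16, 19 and 33), and MAP2, RBFOX3, SYN1, SNAP25, ELAVL3, ELAVL4 and STMN2 had none. Of 7 epithelial and mesenchymal markers VIM had 18, 20 and 19 peaks, KRT18 0, 11 and 0, CDH2 0, 11 and 5 and KRT8 0, 1 and 0, and KRT19, EPCAM and CDH1 had none.

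With G325E the subunits together had fewer peaks than with wild-type DDX3X or vector, while CCT4 had like numbers in the 3 lists. The exact Poisson intervals of the summed peaks were 20.2 to 42.8 for the 30 of vector, 47.5 to 79.5 for the 62 of wild-type DDX3X and 8.40 to 24.7 for the 15 of G325E. Scaled to 10000 peaks of each list the sums were 26.7, 31.1 and 9.57. The log2 ratio of scaled sums was −1.70 for G325E against wild-type DDX3X (exact binomial interval −2.62 to −0.87), which is 3.25-fold lower, and −1.48 for G325E against vector (−2.48 to −0.54). Wild-type DDX3X against vector gave 0.22 (−0.43 to 0.90), an interval that holds 0. Between the lists of G325E and wild-type DDX3X the typical gene with at least 10 peaks was at 0.12 on the same scale. Single subunits weighed on these ratios. Without CCT3, which has the most peaks, G325E stood at −1.31 (−2.34 to −0.38) against wild-type DDX3X and at −0.95 (−2.10 to 0.16) against vector, an interval that holds 0, and without CCT4 at −2.80 and −2.36. Without CCT5 wild-type DDX3X against vector stood at −0.09. Giving every peak to its nearest listed gene name took all CCT3 peaks out of the complex and left −0.78 against wild-type DDX3X and −0.18 against vector. By those names the unscaled peaks numbered 13 with vector, 35 with wild-type DDX3X and 16 with G325E. The same step took out all CCT2 peaks of vector, part of those of wild-type DDX3X, and CCT6A peaks in exons 7 and 8. It brought in CCT6A peaks in and around exon 1, which the rule gives to a neighbouring gene. In bulk libraries, less mRNA of a gene, fewer ribosomes per mRNA and a shallower library cannot be told apart from peak numbers.

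**Figure D1:**
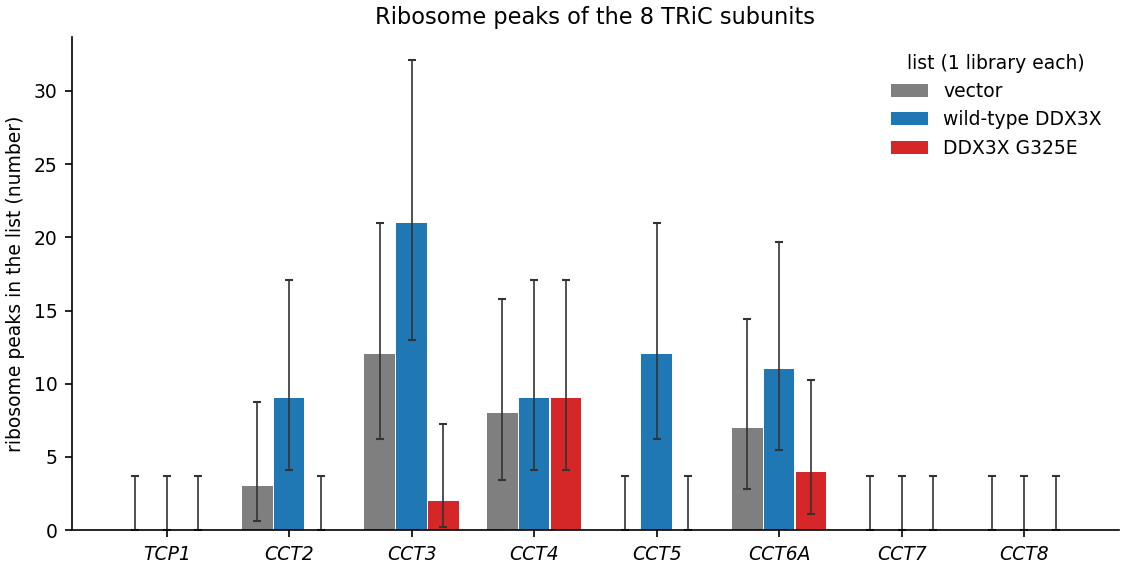
Number of ribosome peaks (vertical axis) of each TRiC subunit in the vector, wild-type DDX3X and DDX3X G325E lists, 1 library each, with exact two-sided Poisson intervals as error bars. CCT3 has 12, 21 and 2 peaks and CCT4 8, 9 and 9, and TCP1, CCT7 and CCT8 have none in any list.

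CCT3 (chr1:156278759-156308083, minus strand), which encodes the gamma subunit, carried the largest part of the complex with vector and wild-type DDX3X. It had 12 peaks with vector, 21 with wild-type DDX3X and 2 with G325E. The Poisson intervals were 6.20 to 20.96, 13.0 to 32.1 and 0.24 to 7.22, so that G325E and wild-type DDX3X do not overlap, while G325E and vector do. The scaled log2 ratio was −3.05 for G325E against wild-type DDX3X (−6.18 to −1.01) and −3.07 against vector (−6.27 to −0.90). Wild-type DDX3X against vector was at −0.02. With wild-type DDX3X, 97.6% of the 3197 genes with peaks had fewer peaks than CCT3, with vector 92.9% of 2126, and with G325E 7.65% of 2443. All but 3 of the 21 wild-type DDX3X peaks lay in coding exons, and the other 3 fell in the 3′-UTR, in intron 10 and, on the opposite strand, in intron 2. Exon 11 was covered over 91.2% of its coding bases with wild-type DDX3X, over 48.1% with vector and not at all with G325E. Both G325E peaks lay in exon 14, the last exon, which was covered over 77.5% with vector, 85.3% with wild-type DDX3X and 68.6% with G325E. In the lists the CCT3 peaks in exons were classed as non-coding, because their annotation pointed to a non-coding CCT3 transcript. All CCT3 peaks, those in introns too, carried neighbouring genes as their listed names.

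CCT4 (chr2:62095220-62115791, minus strand), the delta subunit, stood apart from the other subunits in that its 3 lists were alike in number, with 8 peaks for vector, 9 for wild-type DDX3X and 9 for G325E. The scaled log2 ratio of G325E against wild-type DDX3X was 0.35 (−1.16 to 1.85), a wide interval that also leaves room for a change past 2-fold either way. Against vector CCT4 stood at −0.31 (−1.86 to 1.26) with G325E and at −0.66 (−2.20 to 0.92) with wild-type DDX3X. Its coding sequence was covered over 15.8% with vector, 19.3% with wild-type DDX3X and 14.1% with G325E. Nearly all of that came from the same places. Exon 1 was covered over 99.2% of its coding bases in every list, exon 12 over 43.0%, 60.0% and 32.8%, and exon 11 over 21.4%, 34.4% and 19.1%. In exons 11 and 12 the order of the lists was therefore that of the complex as a whole, with G325E lowest. Off the coding sequence the lists differed the other way, with 4 peaks in intron 1 for G325E, 1 of them without length, against 2 in each of the other lists.

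CCT6A (chr7:56119458-56131682, plus strand), the zeta subunit, had 7 peaks with vector, 11 with wild-type DDX3X and 4 with G325E by the rule. All 4 of G325E were listed as promoter peaks and lay upstream of the canonical transcript. Its scaled log2 ratio was −1.11 for G325E against wild-type DDX3X (−3.22 to 0.64) and −1.29 against vector (−3.51 to 0.69), both with intervals that hold 0. CCT6A lies head to head with PSPH, a phosphoserine phosphatase, and its exon 1 peak, though it carries the gene name CCT6A, is annotated to a PSPH transcript and so stood outside these numbers. In turn, these numbers hold in each list at least 1 upstream peak on the PSPH strand, in an exon of PSPH. By position on the transcript, coding peaks on its own strand numbered 5 with vector, 10 with wild-type DDX3X and 1 with G325E. Coding coverage was 15.9%, 20.97% and 8.60%. With vector and wild-type DDX3X exons 7 and 8 were occupied as well as exon 1, exon 7 over 80 and 93 of its 160 bases, while with G325E the exon 1 peak was the only one in the coding sequence.

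CCT5 (chr5:10250392-10266501, plus strand), the epsilon subunit, had 12 peaks with wild-type DDX3X and none with vector or G325E. The 12 peaks lay in 4 of its 11 exons and covered 23.4% of the coding sequence, with 81.8% of exon 10 and 70.0% of exon 6. Taking a list at 0 as 3 peaks, CCT5 was 2.25-fold higher with wild-type DDX3X than with vector. In the same way it was 3.15-fold lower with G325E than with wild-type DDX3X. These folds leave out the counting error of the 12 peaks, 6.20 to 20.96, and are not lower bounds. No running number was skipped across the gene in the lists of vector or G325E, so no peak of it was left out there.

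CCT2 (chr12:69979239-69995350, plus strand), the beta subunit, had 3 peaks with vector, 9 with wild-type DDX3X and none with G325E. The vector peaks all lay in exon 15, which was covered over 64.1% with vector and 58.5% with wild-type DDX3X, and the wild-type DDX3X list added peaks in exons 8, 9 and 16. With 0 taken as 3 peaks, 2.36-fold fewer were found with G325E than with wild-type DDX3X. That fold leaves out the counting error of the 9 peaks, 4.12 to 17.1. No fold is given against vector, where both values lie at or under 3 peaks.

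TCP1, the alpha subunit that gave the complex its name, CCT7, the eta subunit, and CCT8, the theta subunit, had no peak in any list. In hg19 they lie at chr6:160199530-160210634 on the minus strand, at chr2:73461436-73480133 on the plus strand and at chr21:30428647-30445969 on the minus strand. A count of 0 was taken to allow up to 3 peaks, which is 2.67, 1.51 and 1.91 peaks per 10000 in the lists of vector, wild-type DDX3X and G325E. Running numbers were unbroken across TCP1 and CCT8 in all 3 lists and across CCT7 in those of wild-type DDX3X and G325E, while 1 number was skipped next to CCT7 with vector. Of the occupied subunits, 1 number was skipped around CCT4 with vector, and 1 around CCT2 and 2 around CCT6A with wild-type DDX3X. How near the next peak lay differed. MRPL18, a mitochondrial ribosomal protein gene beside TCP1, had a peak 1.35 kb from it with vector and 1.31 kb with wild-type DDX3X, and the nearest peak to CCT8 with both was in USP16, 12.7 kb away. With G325E the nearest peaks lay 50.8 kb from TCP1 and 2211 kb from CCT8. Around CCT7 the nearest were 953 kb away with vector, 527 kb with wild-type DDX3X and 408 kb with G325E. Sequence uniqueness differed between the subunits. Of all 28-nt stretches of the coding sequence, 40.6% in TCP1 and 34.7% in CCT8 were found again elsewhere in the genome, against none in CCT2 and CCT3 and 2.01% in CCT4. The split was not clean, since CCT7 without peaks had 9.99% and the occupied CCT5 and CCT6A had 22.2% and 28.5%. The part of this in the missing peaks was not tested.

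Laid side by side, the subunits of this equal-part complex were far from even in their number of peaks. A peak needs a base coverage of 10 and has no height. Peak number is therefore not ribosome occupancy, and a gene below that coverage counts as 0. In coding peaks per kb of coding sequence, vector ran from CCT3 (7.34) over CCT6A (3.14), CCT4 (3.09) and CCT2 (1.87) to 4 subunits at 0. Wild-type DDX3X ran from CCT3 (11.0) over CCT5 (7.39), CCT6A (6.28), CCT2 (5.61) and CCT4 (3.71) to 3 at 0. With G325E only CCT4 (2.47), CCT3 (1.22) and CCT6A (0.63) were above 0. The counting intervals of all peaks of a subunit overlapped between neighbours above 0 in each list. By the same intervals a count of 0 allows up to 3.69 peaks. Lower bounds above that were found for CCT3 with vector, for all 5 occupied subunits with wild-type DDX3X and for CCT4 with G325E. The lower bound of CCT4 with vector, 3.45, lay below it. The coefficient of variation over the 8 subunits was 134%, 95.8% and 167%, against 1.43% for their coding lengths. The 20S proteasome core, another complex of fixed composition, gave a coefficient of variation of peak number of 207%, 202% and 188% over 14 genes, against 125%, 96.0% and 172% over the 8 TRiC genes. Low counts raise such a coefficient through counting error. The coding peaks of TRiC numbered 25, 55 and 7 and the proteasome peaks 11, 15 and 11, and the part of counting error was not tested. In all, 992 of the 13014 coding bases of the complex were covered with vector (7.62%), 1972 with wild-type DDX3X (15.2%) and 435 with G325E (3.34%).

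**Figure D2:**
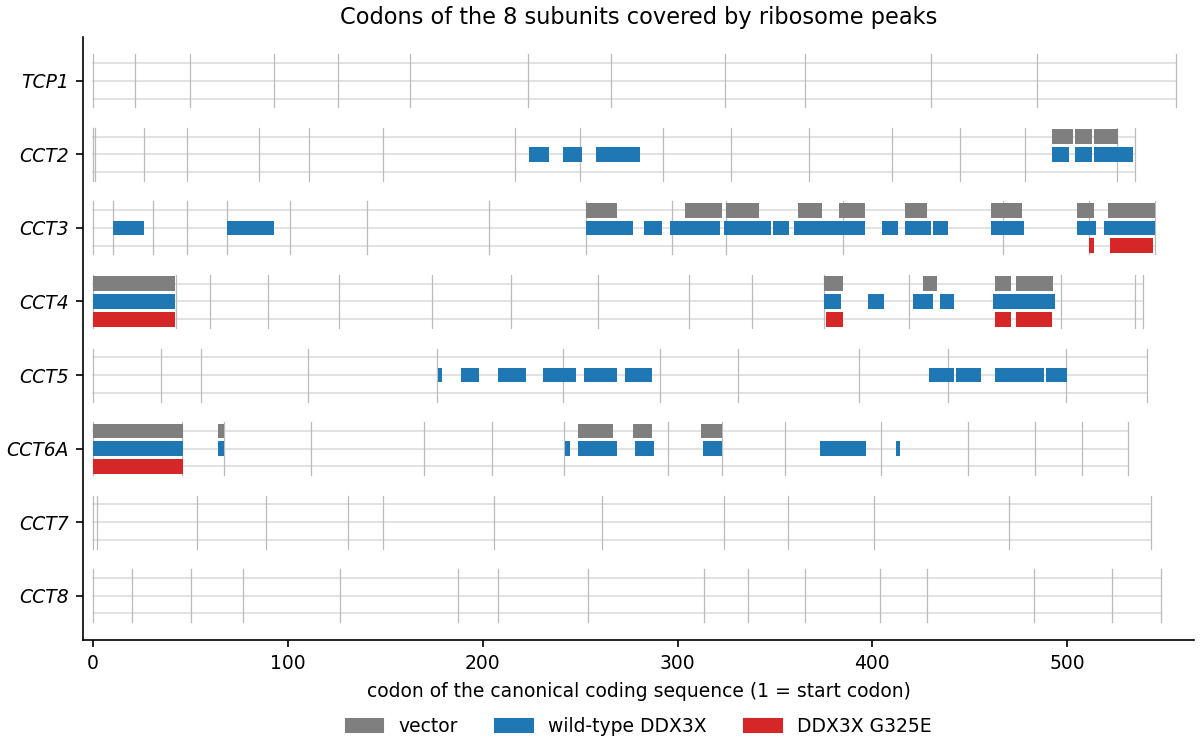
Codons of the 8 canonical coding sequences (horizontal axis, 1 is the start codon) covered by same-strand peaks in each list, with grey vertical lines at exon borders. Start-codon stretches of CCT4 and CCT6A are filled in all 3 lists, whereas the CCT5 stretches are filled with wild-type DDX3X alone.

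Among genes with at least 10 peaks summed over the lists, 5 subunits were counted beside 1772 genes. At least 2-fold lower with G325E than with wild-type DDX3X were 4 of the 5 subunits, CCT2, CCT3, CCT5 and CCT6A, against 18.6% of all genes, and none was as much higher, against 20.1%. The number fell to 1 of 3 subunits counted with exon-class peaks only, with nearest gene names or with equal numbers of longest peaks, where 14.9%, 18.4% and 16.7% of genes were called, and to 2 of 3 at a minimum of 20 peaks (17.8% of genes). G325E was at least 2-fold lower than vector for 2 of 5, CCT3 and CCT6A, against 23.1% of all genes, and higher for none, against 17.2%. No subunit was lower than vector by this call with exon-class peaks only or with nearest gene names. For wild-type DDX3X over vector the call was met by CCT5 alone, against 9.2%, and no subunit was lower, against 17.2%. The median log2 ratio over the 5 subunits was −1.24 for G325E against wild-type DDX3X, where that of all 1772 genes was 0.12. It was −0.48 for G325E against vector, where all genes were at −0.28, and −0.02 for wild-type DDX3X against vector, where all genes were at −0.41. With 0 taken as 3 peaks, the first of these medians is the value of CCT2, and the second rests on CCT2 and CCT5, which have at most 3 peaks in both lists. The comparisons share their lists and are not independent of each other, and the filter kept subunits through the list in which they were high.

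**Figure D3:**
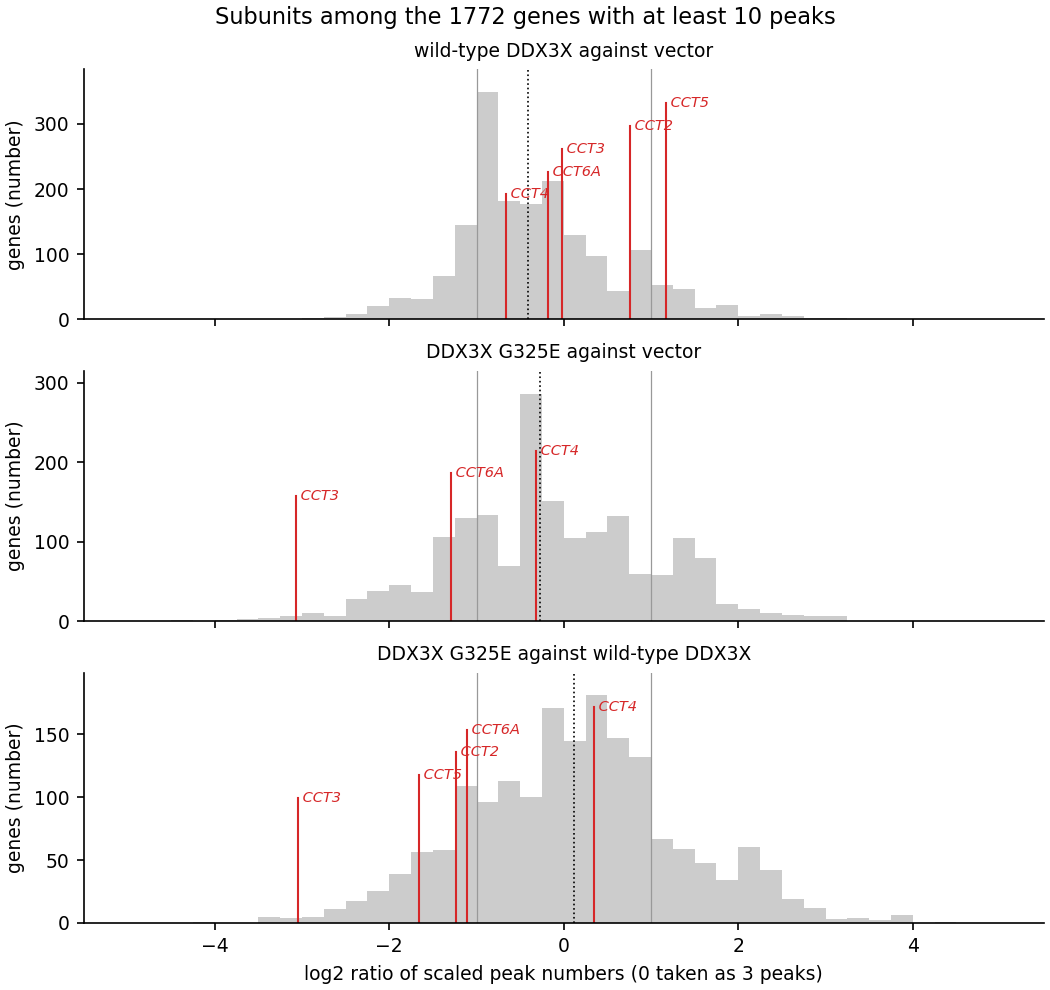
Histograms of the log2 ratio of scaled peak numbers (horizontal axis) over the 1772 genes with at least 10 peaks, for the 3 pairs of lists, with red lines at the subunits, a dotted line at the median of all genes and thin lines at 2-fold. Subunits with at most 3 peaks in both lists of a pair are not marked. CCT3 lies at −3.05 for G325E against wild-type DDX3X and CCT4 at 0.35.

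Where on the gene the peaks lay also differed. On the canonical transcripts 76.7% of vector peaks (exact binomial interval 57.7% to 90.1%), 80.6% of wild-type DDX3X peaks (68.6% to 89.6%) and 40.0% of G325E peaks (16.3% to 67.7%) were coding. Upstream of the transcript lay 5 of 30, 6 of 62 and 5 of 15, and in introns 2, 4 and 4. Before scaling, the number of upstream peaks by the rule, on either strand, was thus nearly the same in the 3 lists. The larger difference between the lists was in the coding peaks, 23, 50 and 6 by the rule. By position on the same strand they numbered 25, 55 and 7, with CCT6A peaks, that of exon 1 among them, which the rule leaves out. The upstream peaks belonged to CCT4 and CCT6A only, and both genes share their promoter region with a neighbour on the other strand, COMMD1 and PSPH. All upstream peaks on the PSPH strand overlapped exons of PSPH and none of CCT6A. The upstream CCT4 peaks of vector and wild-type DDX3X overlapped exons of COMMD1, and only that of G325E an exon of CCT4. The numbers by the rule hold these peaks of the neighbours too. Of the 9 upstream peaks on the CCT6A strand, taken over the 3 lists, 5 overlapped exons of other annotated CCT6A transcripts. The others overlapped exons of PSPH or no annotated exon. The CCT4 intron 1 peaks seen in all 3 lists likewise overlapped exons of another CCT4 transcript. The example below is the vector peak, given because the wild-type DDX3X peak has the same ends.
CCT4 intron 1, chr2:62115330-62115357, minus strand: tctgccgatgatcgccaacccggagtat
A wild-type DDX3X peak in intron 10 of CCT6A lay in SNORA15, a small nucleolar RNA, and is outside the numbers of the rule.

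At the start codons the lists were nearly identical. The CCT4 peak ran from 73 nt before the A of the start codon to 125 nt after it with vector and wild-type DDX3X, and from 71 nt before with G325E, for lengths of 199, 199 and 197 bp. The CCT6A peak measured 149, 150 and 173 bp, and only with G325E did it run beyond the end of exon 1, which lies 136 nt after that A, to 160 nt. A peak over a stretch upstream in the 5′-UTR of CCT6A, from 58 to 31 nt before the start codon, was listed with vector and with G325E at the same ends and as 3 peaks between 84 and 28 nt before it with wild-type DDX3X. The first coding exons of the other subunits had no peak in any list, and 2 of them hold at most 6 coding bases. Over the whole exon their GC content ran from 58.4% to 64.4%, against 66.7% in CCT4 and 66.5% in CCT6A. Of coding peaks, 2 of 25 with vector (8.0%), 3 of 55 with wild-type DDX3X (5.45%) and 2 of 7 with G325E (28.6%) lay in the first 10% of the coding sequence. The binomial interval for G325E, 3.67% to 71.0%, overlaps both others. The mean position along the coding sequence, with 0 at the start and 1 at the stop codon, was 0.681 (SD 0.281), 0.630 (SD 0.257) and 0.636 (SD 0.421), and the G325E peaks lay at both ends. Weighted by peak length the means were 0.510, 0.542 and 0.306, with G325E the lowest.

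**Figure D4:**
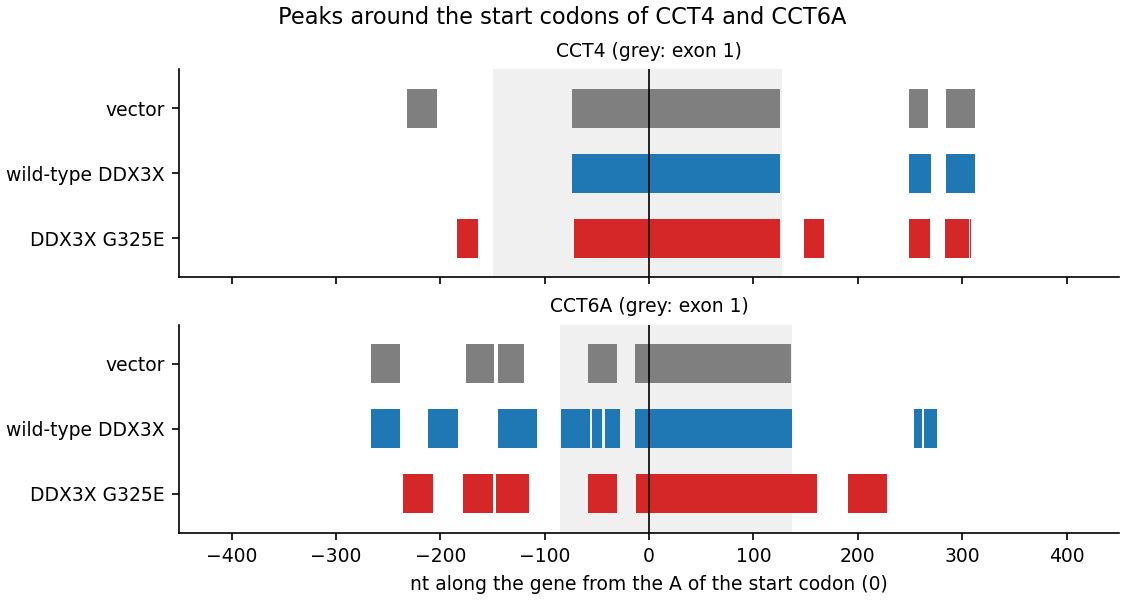
Same-strand peaks around the start codons of CCT4 and CCT6A in each list, with the horizontal axis in nt along the gene from the A of the start codon and exon 1 shaded. The peak over the CCT4 start codon is 199, 199 and 197 bp long with vector, wild-type DDX3X and G325E, and that of CCT6A 149, 150 and 173 bp.

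Most of what G325E retained was shared with the other lists. Of its 15 peaks 11 overlapped a vector peak (73.3%) and 12 a wild-type DDX3X peak (80.0%), where all peaks of the G325E list gave 35.4% and 47.3%. In the other direction 10 of 30 vector peaks (33.3%, all peaks 48.1%) and 11 of 62 wild-type DDX3X peaks (17.7%, all peaks 34.9%) overlapped one of G325E. The vector peaks were almost contained in the wild-type DDX3X list, at 27 of 30 (90.0%, all peaks 76.8%), while 28 of 62 wild-type DDX3X peaks met one of vector (45.2%, all peaks 41.6%). Peaks on either strand were merged over the lists, with the CCT6A peaks that the rule gave to its neighbours included. There were 10 places with a peak in all 3 lists. A further 18 had one with vector and wild-type DDX3X, 3 with wild-type DDX3X and G325E and 1 with vector and G325E. Places in a single list were 38 with wild-type DDX3X alone, 4 with G325E alone and 2 with vector alone. CCT4 held 5 of the 10 places found in all lists, CCT6A 3 and CCT3 2.

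Base composition moved with these results. In a window of 31 nt around each peak the subunits had a GC content of 55.6% (SD 12.0) with vector, 50.9% (SD 12.0) with wild-type DDX3X and 63.9% (SD 13.2) with G325E. Peaks of the whole lists stood at 62.8%, 62.3% and 73.2%, so that G325E was highest in the complex and in all peaks. Of the 108 coding exons of the complex, 14 had a coding peak with vector, 25 with wild-type DDX3X and 5 with G325E. The 5 exons with a G325E peak had a median GC content of 56.9% (42.7% to 69.3%), the 20 with peaks in the other lists only 48.7% (29.7% to 58.1%), and the 83 without a peak 43.96% (30.9% to 60.9%). The part of base composition in the G325E numbers was not tested. Over whole coding sequences the GC content of the occupied subunits was highest in CCT3 (50.4%) and CCT5 (47.8%). CCT6A (45.0%), CCT4 (44.2%) and CCT2 (43.4%) followed. That was nearly the order of their coding peaks per kb with wild-type DDX3X. With vector the order was the same apart from CCT5, which had no coding peak. With G325E it was not kept, since CCT5 again had none and CCT4 (2.47 per kb) stood above CCT3 (1.22). Of the subunits without a peak, TCP1 (42.0%) and CCT8 (41.7%) lay below these and CCT7 (51.5%) above.

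**Figure D5:**
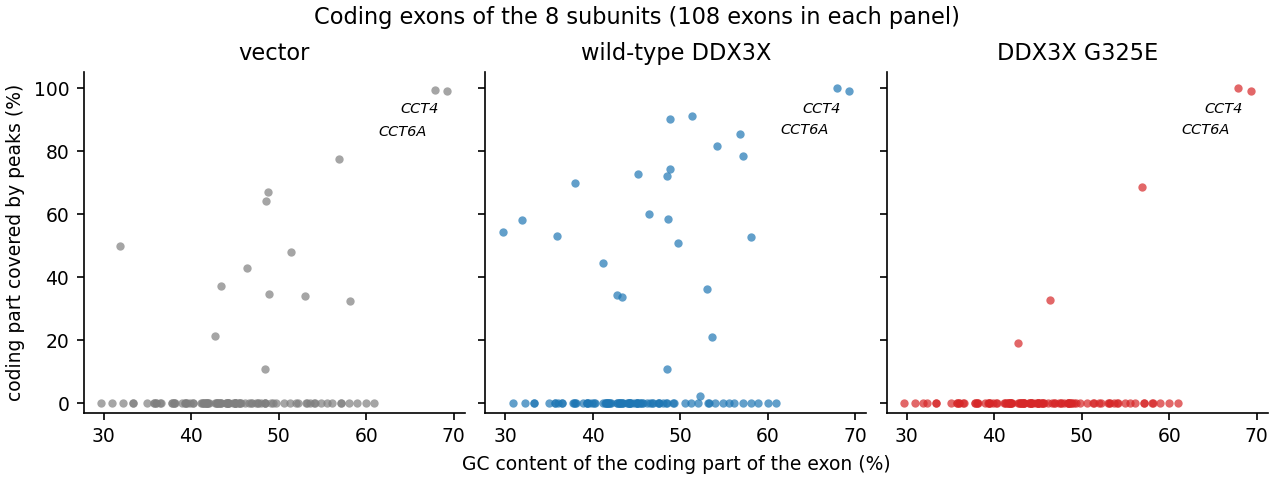
Share of the coding part of each of the 108 exons covered by peaks (vertical axis, %) against its GC content (horizontal axis, %), with 1 panel per list. Exon 1 of CCT4 (69.3% GC) and of CCT6A (67.9% GC) are covered over at least 99.2% in every panel, and 14, 25 and 5 exons have a coding peak.

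Genes that work with TRiC were read in the same way. Prefoldin, the hexamer that hands unfolded actin and tubulin to the chaperonin, had 5, 11 and 2 peaks in its 6 genes with vector, wild-type DDX3X and G325E, the order seen for TRiC, and no single gene reached 10 peaks. Its log2 ratio of G325E against wild-type DDX3X was −2.11 (−5.33 to 0.08). Of the phosducin-like co-factors, which bind TRiC and its substrates, PDCL3 had 5, 9 and 0 peaks and PDCL and TXNDC9 none. The folding clients, the proteins that TRiC folds, had 143, 199 and 167 peaks over 20 genes and a log2 ratio of G325E against wild-type DDX3X of 0.09 (−0.21 to 0.40). Of the 13 clients with at least 10 peaks, 1 was at least 2-fold higher with G325E than with wild-type DDX3X (GNB1), where 20.1% of all genes were, and 1 as much lower (TUBA1B), where 18.6% were. The cytoskeletal actins ACTB and ACTG1 had 25, 25 and 26 and 20, 19 and 23 peaks. The beta-tubulins TUBB (17, 17 and 21), TUBB4B (6, 14 and 13), TUBB2A (6, 20 and 9) and TUBB2B (12, 11 and 17) were present throughout. The alpha-tubulin TUBA1B, with 12, 20 and 0, was the lower one, and TUBA1A had 8, 19 and 8. Near-identical tubulin and actin copies can exchange reads, so their single values are uncertain. The WD40 clients GNB2 (12, 9 and 9), GNB2L1 (10, 10 and 9) and CDC20 (7, 8 and 7), a cell-cycle activator, had like numbers in the 3 lists, whereas GNB1, a G-protein beta subunit, had 1, 6 and 12. The kinase PLK1 had 4, 10 and 10.

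The 14 genes of the 20S proteasome core had 11, 15 and 11 peaks, a log2 ratio of G325E against wild-type DDX3X of −0.10 (−1.37 to 1.12), and 1 gene with at least 10 peaks, PSMB4 (6, 7 and 4). The TRiC paralogs, pseudogenes and relatives CCT6B, CCT6P1, CCT6P3, CCT8L1P, CCT8L2, MKKS, BBS10 and BBS12 had no peak. The mitochondrial chaperonin genes HSPD1 and HSPE1 had 6 and 3 peaks with G325E and none in the other lists.

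Among 272 genes with at least 30 peaks, those whose shares of scaled peaks over the 3 lists lay nearest to the summed subunits (39.7%, 46.2% and 14.2%) included NOLC1, HSP90AA1, STIP1 and ATAD3A, at a distance of 3.61 to 5.66 percentage points. NOLC1 had 15, 28 and 8 peaks, HSP90AA1, a cytosolic HSP90 chaperone, 16, 32 and 6, and STIP1, the co-chaperone that links HSP70 to HSP90, 12, 26 and 8. ATAD3A had 9, 22 and 6. The likeness rests on 3 libraries, and with so few the order among these genes is not a finding.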

How the data were processed

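Ribo-seq libraries of HEK293T cells (1 per construct) were deposited by the authors as lists of peak positions, with no height or read count. The authors trimmed reads with cutadapt, aligned them with BWA 0.5.5 to hg19, called peaks separately in each library where base coverage reached 10, and annotated them with HOMER. Start, end and distance to the transcription start site are positions, and the distance was not used. Here each peak was given to a gene as described above and placed on the canonical GENCODE 44 transcript lifted to GRCh37, by its midpoint, with Python 3.11.15, pandas 2.3.3, scipy 1.17.1 and pysam 0.24.0. Peak numbers were scaled to the list total. Intervals are exact Poisson, or exact binomial (Clopper-Pearson). A 0 was taken as 3 peaks for a fold. Peaks count as shared from an overlap of 1 bp. Named were the subunits, list members with at least 10 peaks in all, and the 5 most alike genes, of which 1 is not reported here. The code for the 2-fold call was checked on simulated lists with known changes. Members, lists and rules were chosen with earlier results of these data known. Sequences were read from the GRCh37 genome. The lists give no read depth, and peak numbers were not corrected for it.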

Additional observations from a re-analysis of the deposited data

How the results depend on the processing

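No paired analysis was possible because each construct has 1 sample. The log2 ratio of the summed subunits with G325E against either other list stayed below 0 under every alternative run. Giving each peak to its nearest listed gene name took CCT3 out of the complex and also moved CCT2 and CCT6A peaks. Together this brought the log2 ratio to −0.18 against vector and −0.78 against wild-type DDX3X. Before scaling, the peaks by nearest names were 16 with G325E, 13 with vector and 35 with wild-type DDX3X. The median of genes with peaks in both lists was −0.26 against vector and 0.35 against wild-type DDX3X in that setting. Leaving out 1 subunit at a time gave −2.80 (without CCT4) to −1.31 (without CCT3) against wild-type DDX3X, −2.36 (without CCT4) to −0.95 (without CCT3) against vector, and leaving out both CCT3 and CCT4 gave −2.65 against wild-type DDX3X. Wild-type DDX3X against vector gave −0.09 without CCT5 and 1.05 without scaling. It gave 0.99 by coding bases covered, also without scaling, and 0.19 by scaled bases covered in place of peaks. The unscaled coding bases and the step without both CCT3 and CCT4 were chosen after seeing the data. Scaling by the median of per-gene ratios moved the median of all genes by 0.51 for wild-type DDX3X against vector, by 0.35 for G325E against vector and by −0.15 for G325E against wild-type DDX3X, and turned the clients to 0.15 for wild-type DDX3X against vector, from −0.35, and to 0.092 for G325E against vector, from −0.26. Of the 4 subunits past 2-fold lower with G325E than with wild-type DDX3X, 1 was left with exon-class peaks only, 1 with nearest gene names and 1 with equal numbers of longest peaks, and 2 with a minimum of 20 peaks, each of 3 subunits counted in place of 5, where 14.9%, 18.4%, 16.7% and 17.8% of genes were called. Against vector the 2 became 1 of 5 with median scaling (15.1% of genes) and without scaling (14.8%), 1 of 3 with longest peaks (27.9%), 0 of 3 with exon-class peaks (21.9%) and 0 of 3 with nearest names (22.9%). For wild-type DDX3X over vector the 1 became 2 of 5 with median scaling (18.7%) and without scaling (27.9%), 0 of 3 with longest peaks (11.2%) and with a minimum of 20 (10.5%), and longest peaks put 1 of 3, CCT4, past 2-fold lower (22.1%). By listed class, before replacement by the transcript, the exon share was 36.7% and 51.6% for vector and wild-type DDX3X, against 76.7% and 80.6% on the transcript. Leaving out 1 subunit gave exon shares of 27.3% to 61.1%, 40.0% to 78.0% and 0% to 36.4% for vector, wild-type DDX3X and G325E, promoter shares of 4.35% to 27.8%, 1.961% to 17.1% and 9.09% to 66.7%, and intron shares of 0% to 11.1% for vector and 0% to 36.4% for G325E, the extremes coming without CCT3, CCT4, CCT5 or CCT6A. Weighting by length moved the mean coding position to 0.510, 0.542 and 0.306. By exon class the coefficient of variation over subunits was 118% with wild-type DDX3X and 283% with G325E. The cause of these shifts was not tested unless stated. Few peaks per gene and the single library per construct limit every value.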
